A study of Homo sapiens with 6 samples.

Results

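The genes described here are 34 genes of the ATF4 amino acid stress response, measured by RNA-seq in A549-GFP cells and A549-TIPARP cells. They comprise ATF4 itself, kinases and translation factors around eIF2α, partner and target transcription factors, stress effectors, secreted proteins, and enzymes of serine, folate, proline and asparagine metabolism. Members were taken by gene symbol, and each of the 34 was found once among the 53826 entries of every table and lay above 2 TPM (the share of a library's transcripts, corrected for transcript length) in at least 1 of the 6 libraries. That filter left 13181 entries for analysis. A549 cells derive from a human lung adenocarcinoma. A549-GFP cells stably overexpressed GFP and A549-TIPARP cells stably overexpressed TIPARP, a mono-ADP-ribosyltransferase induced through the aryl hydrocarbon receptor, in each case from a pMXs retroviral vector packaged in Plat-A cells. Both lines therefore carried a retroviral transgene, and the sources name no selection of single clones. No compound or amino acid shortage was applied according to the labels, and the methods give 1 medium for A549 cells, DMEM with fetal bovine serum. There were 3 libraries per line, numbered by experiment, and wherever 3 values of a line are given they follow the order of replicates 1, 2 and 3. Nothing in the labels says that the 3 came from separate transductions, so p-values measure only the spread between these libraries.

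ATF4 is the central transcription factor of the integrated stress response. When kinases such as GCN2 (EIF2AK4), which senses uncharged tRNA, or PERK (EIF2AK3), which senses stress in the endoplasmic reticulum, phosphorylate eIF2α, general translation is lowered while ATF4 mRNA is translated more. ATF4 then pairs with C/EBP family members on composite C/EBP-ATF elements and drives genes for amino acid synthesis, uptake and tRNA charging, together with feedback factors such as PPP1R15A and TRIB3. In lung adenocarcinoma the pathway is known for its support of serine and asparagine synthesis.

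To show what the promoters of these genes hold, the core letters of the C/EBP-ATF element, TGATGNAA, and of the cAMP response element, TGACGTCA, were searched on both strands in RefSeq promoters of build GRCh38.p14, from 250 bases before to 50 bases after the start of a gene. An entry was found for 26 of the 34 members. The members not matched were ALDH1L2, EIF4EBP1, GPT2, IGFBP1, NUPR1, PSPH, PYCR1 and SHMT2. The 7 matches are given in windows of 30 bases, 5′ to 3′ along the gene, with the motif letters in capitals; the CHAC1 match reads TGATGNAA on the opposite strand, and PPP1R15A holds the cAMP response element.
ATF3, chr1:212565205-212565234, plus strand: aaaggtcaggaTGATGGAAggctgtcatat
CEBPG, chr19:33374060-33374089, plus strand: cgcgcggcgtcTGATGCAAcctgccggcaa
JDP2, chr14:75427995-75428024, plus strand: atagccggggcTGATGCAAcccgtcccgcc
CHAC1, chr15:40953251-40953280, plus strand: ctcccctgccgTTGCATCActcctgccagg
ASNS, chr7:97872458-97872487, minus strand: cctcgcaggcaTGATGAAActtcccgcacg
MTHFD1L, chr6:150866346-150866375, plus strand: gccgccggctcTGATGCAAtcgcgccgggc
PPP1R15A, chr19:48872352-48872381, plus strand: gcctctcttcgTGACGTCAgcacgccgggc

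The first motif letter lay 191 bases before the start in ATF3, 42 in CEBPG, 16 in JDP2, 209 in CHAC1, 68 in ASNS and 58 in PPP1R15A. In MTHFD1L it lay 129 or 90 bases before or 24 bases after the start, depending on which of its RefSeq starts was taken. In GENCODE 44 the ATF3 window overlaps no ATF3 transcript. The CEBPG window overlaps 2 CEBPG transcripts but no annotated untranslated or coding region of CEBPG. The windows of ASNS, JDP2, CHAC1, MTHFD1L and PPP1R15A reach into such a region of at least 1 annotated transcript. Exons of transcripts without a coding region were not searched. TGATGNAA was held by 6 of the 26 members with an entry (23.1%) and by 4.46% of the 27305 genes with an entry. TGACGTCA was held by 1 of the 26 members (3.85%) and by 2.25% of all genes. A match is a description of the letters and does not show that a factor binds there.

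The targeted gene was checked first. TIPARP (chr3:156673235-156706770, plus strand, hg38) was present at 6.79, 11.4 and 3.68 TPM among the A549-GFP libraries and 131, 90.5 and 123 TPM among the A549-TIPARP libraries. Its mean log2 TPM rose from 2.72 ± 0.81 to 6.82 ± 0.28 (SD, n = 3 in each line), with a limma Benjamini-Hochberg adjusted p of 0.0125. The adjusted limma p was 0.0331 without A549-GFP replicate 2 and between 0.0526 and 0.192 when any 1 of the other 5 libraries was left out. It was 0.0965 without the filter on low values and 0.513 with the replicate number as a block. Whether same-numbered libraries were paired could not be settled. A549-GFP replicate 2 stood apart from the other libraries. Its genes deviated from the line mean by a root mean square of 0.621 on the log2 scale, against 0.185 to 0.400 in the other 5 libraries. The 7 markers of A549 and epithelial cells were detected in both lines, and their summed level ranged from 16959 TPM in replicate 2 to 33053 TPM among the A549-GFP libraries and from 28581 to 31698 TPM among the A549-TIPARP libraries. All 6 endothelial markers and 5 of 7 fibroblast and mesenchymal stem cell markers sat at the floor of 1 TPM in every library. The fibroblast markers above it summed to 1.09 to 1.44 TPM in A549-GFP cells and 1.64 to 2.56 TPM in A549-TIPARP cells. Of 5 leukocyte markers 3 were, with summed levels of 3.73 to 10.9 TPM in A549-GFP cells and 6.72 to 12.5 TPM in A549-TIPARP cells, from CD14 and LYZ. The part of any of these values in the results below was not tested, and differences between the lines are given with and without A549-GFP replicate 2.

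The ATF4 response genes were high in 1 library rather than in 1 line. A549-GFP replicate 2 was the highest of the 6 libraries for 32 of the 34 members, the exceptions being PYCR1 and NUPR1, whereas it was the highest for 52% of all genes analysed. Summed over the members, the level was 3126, 7109 and 2849 TPM among the A549-GFP libraries and 2570, 2688 and 2689 TPM among the A549-TIPARP libraries. On this sum the other 5 libraries lay close together, with the A549-TIPARP libraries below both remaining A549-GFP libraries. Gene by gene the order differed. The median deviation of the members from their 6-library mean, on the log2 scale, was -0.02, 1.07 and -0.35 among the A549-GFP libraries. Among the A549-TIPARP libraries it was -0.26, -0.17 and -0.21. A549-GFP replicate 3 was the lowest library for 18 of the 34 members and for 34.6% of all genes analysed. In these bulk samples a response in all cells and a stronger response in some of the cells cannot be told apart.

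Relative to the mean log2 TPM of the other 5 libraries, A549-GFP replicate 2 was higher by a median of 1.29 on the log2 scale over the members, in comparison to 0.33 over all genes. The members ranged from -0.04 for PYCR1 to 3.44 for CHAC1. More than 2-fold above the other 5 libraries were 23 of 34 members (67.6%) and 13.5% of all genes. After each library was divided by its median ratio to an average library, a setting chosen after the data were seen, 16 members were past 2-fold (6.05% of all genes), 27 were highest in that library (31.4% of all genes), and the median was 0.96 for the members and 0.01 for all genes.

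**Figure D1:**
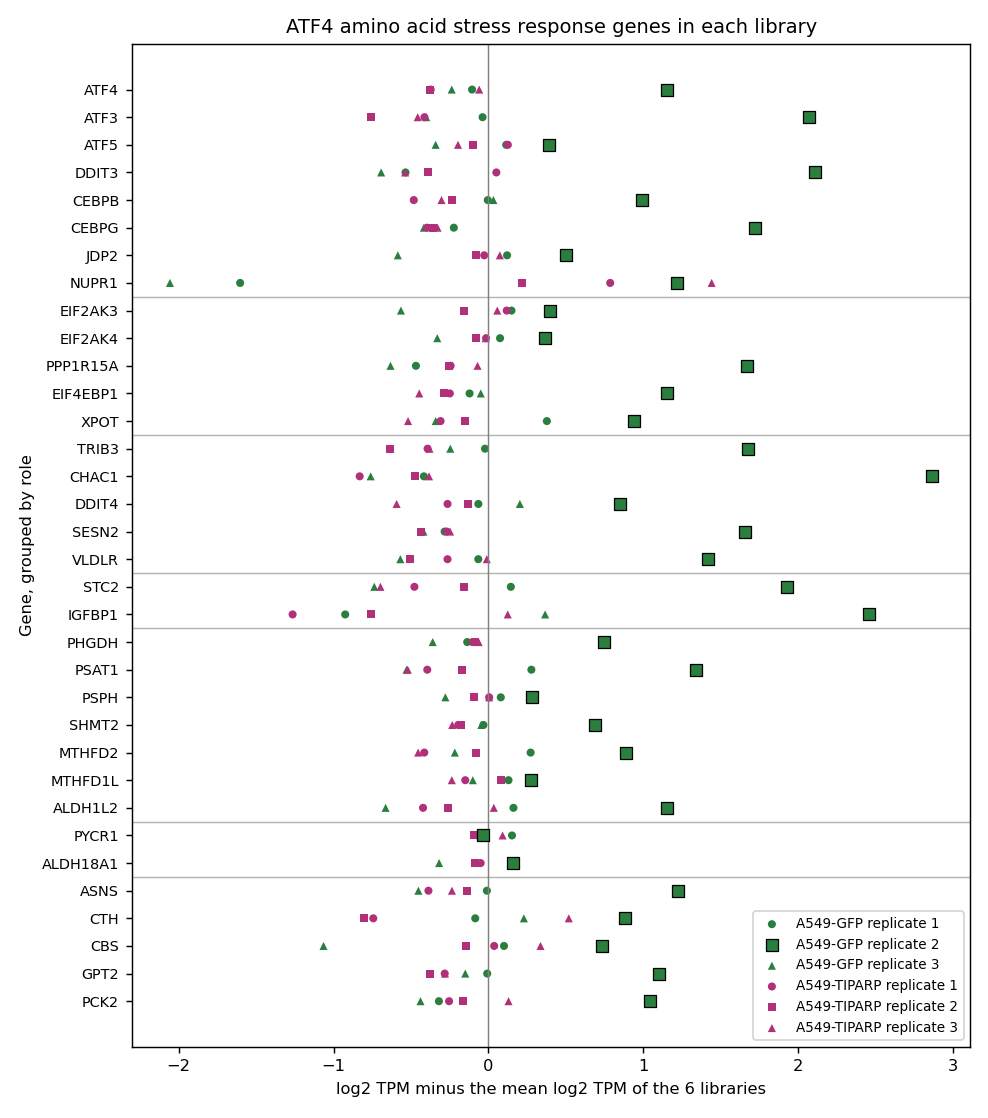
Each row is a member, grouped by role and divided by lines, and the horizontal axis is its log2 TPM in a library minus its mean over the 6 libraries. Green symbols are A549-GFP libraries and magenta symbols A549-TIPARP libraries; the large green squares, A549-GFP replicate 2, are furthest to the right in 32 of 34 rows.

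The spread within the lines differed accordingly. The median SD of log2 TPM over the members was 0.741 in A549-GFP cells and 0.164 in A549-TIPARP cells, whereas over all genes it was 0.391 and 0.186. The other A549-GFP libraries were not alike either, since 29 of 34 members (85.3%) were higher in replicate 1 than in replicate 3, as were 69.4% of all genes. Between the 2 lines, the difference is given below as the mean log2 TPM of A549-TIPARP minus that of A549-GFP.

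With all 6 libraries, 30 members had a lower mean and 4 a higher mean in the A549-TIPARP line, with a median difference of -0.53 against -0.07 for all genes. Of all 13181 genes, 7896 had a lower and 5285 a higher mean. Without A549-GFP replicate 2, 18 members had a lower and 16 a higher mean, and the median was -0.03 against 0.05 for all genes. Of all genes, 5610 then had a lower and 7503 a higher mean. Past 2-fold lower were 3 members, ATF3, CHAC1 and IGFBP1 (8.82% of members, 0.432% of all genes), and none without that library (0.296% of all genes). Past 2-fold higher was NUPR1 in both cases (2.94% of members), beside 1.53% of all genes with and 2.91% without the library.

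No member passed limma's test at a Benjamini-Hochberg adjusted p under 0.05, with all 6 libraries (lowest adjusted p 0.994; 0.0152% of all genes passed) or without A549-GFP replicate 2 (lowest adjusted p 0.225; 0.0228% of all genes passed). The same was found for every member under every alternative that was run. At an unadjusted limma p under 0.05, 3 members were lower with all 6 libraries, CEBPB, DDIT4 and MTHFD2 (8.82% of members, 0.88% of all genes), and 0 were higher (2.97% of all genes). Without A549-GFP replicate 2, CEBPB was lower (2.94% of members, 1.16% of all genes) and NUPR1 was higher (2.94% of members, 9.3% of all genes). An exact permutation test of 3 against 3 libraries cannot go below p = 0.1, so none was run on single members.

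The levels did not overlap between the lines in 7 members, all lower in A549-TIPARP cells: ATF3, CEBPB, EIF4EBP1, TRIB3, DDIT4, SHMT2 and GPT2 (20.6% of members, 3.54% of all genes). Leaving out a library cannot make such genes overlap, and without A549-GFP replicate 2 no further member joined them on the lower side (6.42% of all genes). No member was higher in every A549-TIPARP library than in every A549-GFP library (5.36% of all genes). Without A549-GFP replicate 2, NUPR1, PPP1R15A, PHGDH and PCK2 were (11.8% of members), a share below the 21.2% of all genes.

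**Figure D2:**
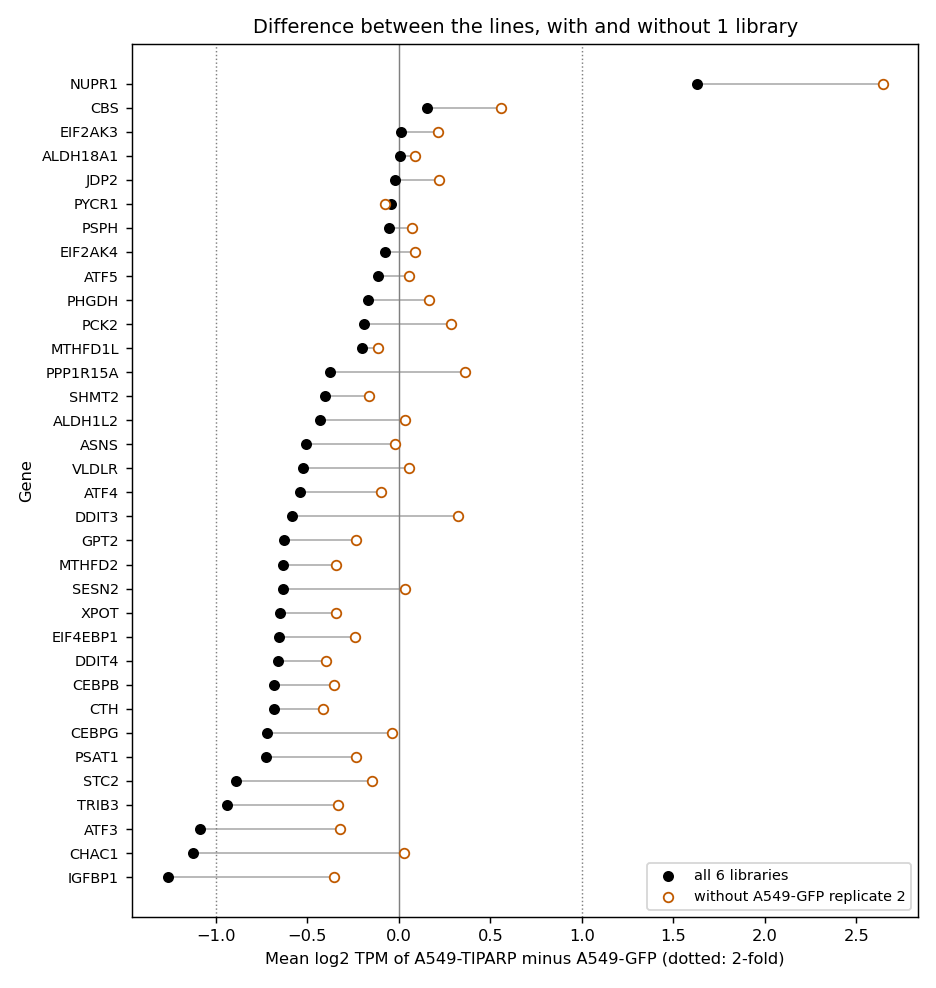
The horizontal axis is the mean log2 TPM of A549-TIPARP minus A549-GFP for each member, with all 6 libraries (filled) and without A549-GFP replicate 2 (open); dotted lines mark 2-fold. For 33 of 34 members the open symbol lies to the right of the filled one, the exception being PYCR1, and NUPR1 is past 2-fold on the higher side in both cases.

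ATF4 (chr22:39519695-39522683, plus strand), the factor that gives the response its name, was present at 520, 1244 and 475 TPM among the A549-GFP libraries and 432, 431 and 537 TPM among the A549-TIPARP libraries. A549-GFP replicate 2 was 2.32-fold above the next highest library, and the other 5 libraries overlapped. The mean log2 TPM was 9.40 ± 0.77 in A549-GFP cells and 8.86 ± 0.18 in A549-TIPARP cells (SD, n = 3 in each line), a difference of -0.54, which was -0.10 without A549-GFP replicate 2. These are mRNA levels, and ATF4 is controlled to a large part in translation, which was not measured.

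ATF3 (chr1:212565334-212620777, plus strand), a stress-responsive bZIP factor, was present at 4.72, 20.3 and 3.67 TPM among the A549-GFP libraries and 3.64, 2.86 and 3.53 TPM among the A549-TIPARP libraries. The lines did not overlap, although A549-GFP replicate 3 was nearly level with A549-TIPARP replicate 1. The difference of -1.09 came to -0.32 without A549-GFP replicate 2. DDIT3 (chr12:57516588-57521737, minus strand), which encodes the pro-apoptotic factor CHOP, was present at 14.4, 89.9 and 12.9 TPM among the A549-GFP libraries and 21.6, 15.9 and 14.4 TPM among the A549-TIPARP libraries. Its 1 high value, 5.77-fold above the mean of the other libraries, set the direction: the difference was -0.59 with all 6 libraries and 0.32 without A549-GFP replicate 2.

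CEBPB (chr20:50190830-50192668, plus strand), a C/EBP partner of ATF4, was present at 175, 350 and 180 TPM among the A549-GFP libraries and 126, 149 and 142 TPM among the A549-TIPARP libraries. All A549-TIPARP libraries were below all A549-GFP libraries, also apart from the high value of replicate 2. The limma difference on log2(TPM + 1) was -0.68 (standard error 0.27, unadjusted p = 0.0340, adjusted p = 0.994), and -0.35 without A549-GFP replicate 2 (standard error 0.12, unadjusted p = 0.0263, adjusted p = 0.405). CEBPB was the only member under 0.05 unadjusted in the lower direction both with and without that library.

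CEBPG, another C/EBP partner, was 157 TPM in A549-GFP replicate 2 and between 35.7 and 40.8 TPM in the other 5 libraries. ATF5, a bZIP factor that is itself under translational control, ranged from 27.9 to 46.4 TPM, and JDP2, a repressor of AP-1, from 9.25 to 19.6 TPM. Both were highest in A549-GFP replicate 2 and lowest in A549-GFP replicate 3, with differences between the lines of -0.11 and -0.02, which were 0.06 and 0.22 without A549-GFP replicate 2. For CEBPG the difference was -0.72 with and -0.04 without that library.

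NUPR1 (chr16:28532708-28539008, minus strand), a small stress-induced chromatin protein, was 2.75-fold above the mean of the other 5 libraries in A549-GFP replicate 2. Unlike the other members, it was also past 2-fold higher in A549-TIPARP cells. It was present at 3.92, 27.6 and 2.86 TPM among the A549-GFP libraries and 20.5, 13.8 and 32.3 TPM among the A549-TIPARP libraries. The 3 A549-TIPARP libraries and A549-GFP replicate 2 were high and the other 2 A549-GFP libraries were low. The mean log2 TPM was 2.76 ± 1.77 in A549-GFP cells and 4.39 ± 0.61 in A549-TIPARP cells (SD, n = 3 in each line), a 3.09-fold higher mean that was 6.25-fold higher without A549-GFP replicate 2. On log2(TPM + 1) limma gave 1.43 (standard error 0.69, adjusted p = 0.994) with all 6 libraries and 2.33 (standard error 0.36, adjusted p = 0.225) without A549-GFP replicate 2, with adjusted p values from 0.124 to 1 over all alternatives. Its difference kept its sign in all 16 alternatives.

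Of the eIF2α kinases, EIF2AK3 ranged from 5.69 to 11.1 TPM and EIF2AK4 from 11.6 to 18.8 TPM over the 6 libraries, with differences between the lines of 0.01 and -0.07, which were 0.21 and 0.09 without A549-GFP replicate 2. Their mRNA was 1.40-fold and 1.36-fold above the mean of the other libraries in A549-GFP replicate 2, among the smaller excesses of the members. PPP1R15A, the stress-induced phosphatase subunit GADD34 that reverses eIF2α phosphorylation, was 76.0 TPM in A549-GFP replicate 2 and 15.4 to 22.8 TPM in the other 5 libraries. Its difference was -0.38 with all 6 libraries and 0.36 without that library, and all A549-TIPARP libraries were then above both A549-GFP libraries.

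EIF4EBP1 (chr8:38030534-38060365, plus strand), which encodes the translation repressor 4E-BP1, was present at 351, 850 and 369 TPM among the A549-GFP libraries and 322, 314 and 280 TPM among the A549-TIPARP libraries. The A549-TIPARP libraries were all lower, with a difference of -0.65 that was -0.24 without A549-GFP replicate 2. XPOT, the tRNA exportin, was highest in A549-GFP replicate 2 at 144 TPM and ranged from 52.3 to 97.4 TPM elsewhere, with overlap between the lines and a difference of -0.65, or -0.34 without that library.

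The stress effectors were the furthest above the other libraries in A549-GFP replicate 2 among the groups of more than 2 genes, with a median of 1.99 on the log2 scale, and all 5 were past 2-fold there. TRIB3 (chr20:362835-397559, plus strand), a pseudokinase that dampens ATF4 activity, was present at 151, 490 and 129 TPM among the A549-GFP libraries and 117, 98.8 and 118 TPM among the A549-TIPARP libraries. The lines did not overlap. The difference was -0.94 with all 6 libraries and -0.34 without A549-GFP replicate 2.

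CHAC1 (chr15:40952962-40956512, plus strand), a glutathione-degrading enzyme and a late target in the PERK branch, was present at 6.57, 64.0 and 5.18 TPM among the A549-GFP libraries and 4.93, 6.32 and 6.73 TPM among the A549-TIPARP libraries. The single value of A549-GFP replicate 2 was 9.51-fold above the next highest library, and the other 5 libraries interleaved. The difference of -1.13, past 2-fold, was 0.0255 without that library.

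DDIT4 (chr10:72273919-72276036, plus strand), the mTORC1 inhibitor REDD1, was present at 345, 651 and 416 TPM among the A549-GFP libraries and 301, 330 and 239 TPM among the A549-TIPARP libraries. All A549-TIPARP libraries were lower than all A549-GFP libraries. The limma difference was -0.66 (standard error 0.25, unadjusted p = 0.0280, adjusted p = 0.994) and -0.40 without A549-GFP replicate 2 (standard error 0.18, adjusted p = 0.504). SESN2, another inhibitor of mTORC1 signalling, was 40.9 TPM in A549-GFP replicate 2 and between 9.60 and 10.9 TPM in the other 5 libraries. VLDLR, a lipoprotein receptor and ATF4 target, was 25.1 TPM there and 6.34 to 9.33 TPM elsewhere. The differences of SESN2 and VLDLR, -0.63 and -0.52, were 0.03 and 0.06 once that library was left out.

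Of the secreted proteins, IGFBP1 (chr7:45888360-45893660, plus strand), an insulin-like growth factor binding protein, was present at 55.6, 579 and 136 TPM among the A549-GFP libraries and 43.9, 62.5 and 115 TPM among the A549-TIPARP libraries. It varied within both lines, and the lines overlapped. Its difference of -1.26 was the most negative of the members and was -0.35 without A549-GFP replicate 2 (limma standard errors 0.74 and 0.52). STC2, a stanniocalcin with a known ATF4 dependence, was 56.0 TPM in A549-GFP replicate 2 and 8.83 to 16.3 TPM elsewhere, with a difference of -0.89 that was -0.15 without that library.

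**Figure D3:**
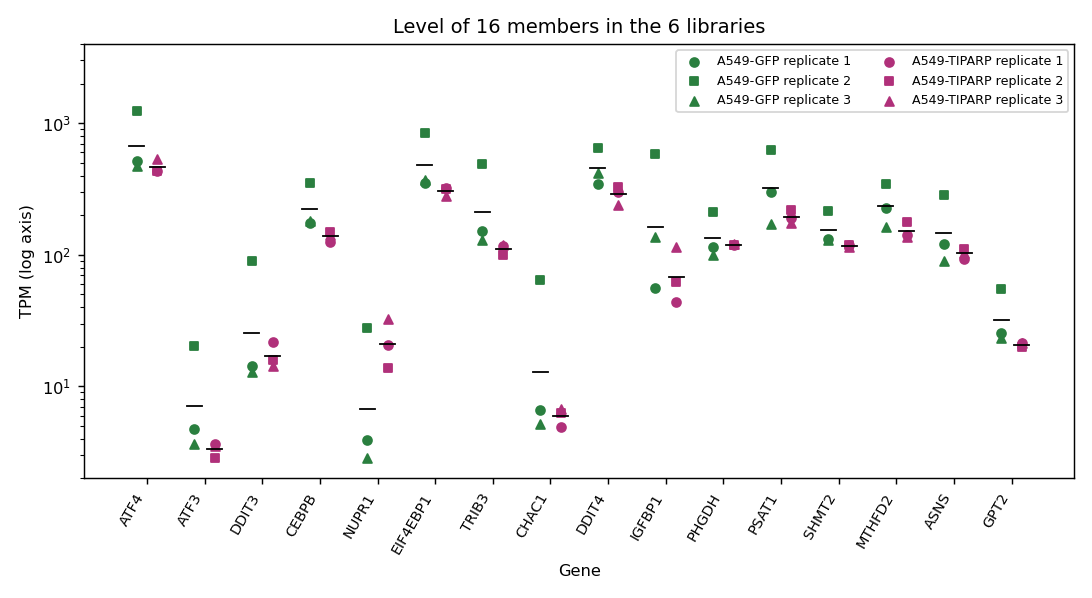
The vertical axis is TPM on a log scale for 16 members, with A549-GFP libraries in green at the left and A549-TIPARP libraries in magenta at the right of each gene, and bars at the mean of log2 TPM (n = 3). A549-GFP replicate 2 (green squares) is the top point of its line for every gene, while for NUPR1 the A549-TIPARP libraries lie on both sides of it.

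The enzymes of serine synthesis were each highest in A549-GFP replicate 2. PHGDH (chr1:119648411-119744218, plus strand), which catalyses the first step from 3-phosphoglycerate, was present at 115, 213 and 98.8 TPM among the A549-GFP libraries and 118, 119 and 121 TPM among the A549-TIPARP libraries. The A549-TIPARP libraries were nearly equal and lay between the A549-GFP libraries, with a difference of -0.17 that was 0.16 without A549-GFP replicate 2. PSAT1 (chr9:78297125-78330093, plus strand), the aminotransferase of the next step, was present at 301, 628 and 172 TPM among the A549-GFP libraries and 189, 221 and 173 TPM among the A549-TIPARP libraries. The lines overlapped through A549-GFP replicate 3, and the difference was -0.72 with and -0.24 without A549-GFP replicate 2. PSPH, the last enzyme of the pathway, ranged from 48.6 to 71.6 TPM, with a difference of -0.06, or 0.07 without A549-GFP replicate 2.

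In mitochondrial folate metabolism, SHMT2 (chr12:57229573-57234935, plus strand), which passes the serine carbon to folate, was present at 132, 217 and 131 TPM among the A549-GFP libraries and 118, 119 and 115 TPM among the A549-TIPARP libraries. The A549-TIPARP libraries were all lower and close together, with a difference of -0.40, and of -0.16 without A549-GFP replicate 2. MTHFD2 (chr2:74186172-74217565, plus strand), the mitochondrial methylenetetrahydrofolate dehydrogenase, was present at 227, 348 and 161 TPM among the A549-GFP libraries and 141, 178 and 137 TPM among the A549-TIPARP libraries. The lines overlapped, since A549-TIPARP replicate 2 exceeded A549-GFP replicate 3. The limma difference was -0.63 (standard error 0.27, unadjusted p = 0.0482, adjusted p = 0.994) and -0.34 without A549-GFP replicate 2 (standard error 0.20, adjusted p = 0.618). MTHFD1L, the mitochondrial formyltetrahydrofolate synthetase, was between 18.9 and 26.9 TPM in all 6 libraries. ALDH1L2, which oxidises mitochondrial formyltetrahydrofolate, was 11.7 TPM in A549-GFP replicate 2 and 3.31 to 5.87 TPM elsewhere. Their differences of -0.20 and -0.43 were -0.12 and 0.03 without that library.

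The proline enzymes showed the least of the pattern. PYCR1, which makes proline from pyrroline-5-carboxylate, ranged from 80.5 to 95.3 TPM and was highest in A549-GFP replicate 1. ALDH18A1, which catalyses the first steps from glutamate, ranged from 39.1 to 54.5 TPM. The differences were -0.04 for PYCR1 and 0.0047 for ALDH18A1, and -0.07 and 0.09 without A549-GFP replicate 2. Their excess in A549-GFP replicate 2 had a median of 0.08 on the log2 scale, below that of all genes, against 0.90 for the 7 serine and folate enzymes.

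ASNS (chr7:97851677-97872542, minus strand), asparagine synthetase and a classical amino acid response gene, was present at 121, 285 and 89.2 TPM among the A549-GFP libraries and 93.3, 111 and 104 TPM among the A549-TIPARP libraries. Only A549-GFP replicate 2 stood out, 2.35-fold above the next library. The difference was -0.51, and -0.02 without that library. GPT2 (chr16:46884362-46931289, plus strand), the mitochondrial alanine aminotransferase, was present at 25.7, 55.3 and 23.3 TPM among the A549-GFP libraries and 21.2, 19.8 and 21.3 TPM among the A549-TIPARP libraries. The lines did not overlap, with a difference of -0.63, and of -0.24 without A549-GFP replicate 2.

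PCK2, the mitochondrial phosphoenolpyruvate carboxykinase, was 127 TPM in A549-GFP replicate 2 and 45.4 to 67.4 TPM elsewhere, and the A549-TIPARP libraries were above the other 2 A549-GFP libraries. Its difference was -0.19 with and 0.28 without that library. CTH, the cystathionine γ-lyase of transsulfuration, ranged from 9.26 to 18.1 TPM in A549-GFP cells and from 5.64 to 14.1 TPM in A549-TIPARP cells, the highest of the latter in replicate 3. CBS, the first enzyme of transsulfuration, ranged from 2.87 to 9.98 TPM. Without A549-GFP replicate 2 the difference went from -0.68 to -0.41 for CTH and from 0.15 to 0.56 for CBS. The hg38 build holds a near-identical copy of CBS, and how the authors' counting split reads between copies is not given in the sources used here, so the CBS level is uncertain.

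The promoter letters and the levels were set side by side. Among the 26 members with a RefSeq promoter, the 6 that hold TGATGNAA had a median level in A549-GFP replicate 2 of 3.40 times the mean of the other 5 libraries (range 1.26 to 10.8), and the 20 others 2.24 times (range 1.14 to 5.77). CHAC1, ATF3 and CEBPG of the windows shown were 10.8-fold, 5.59-fold and 4.18-fold higher there, and ASNS 2.77-fold. JDP2 and MTHFD1L were 1.52-fold and 1.26-fold higher, although their windows hold the same 8 letters, TGATGCAA, as those of CEBPG and, on the opposite strand, CHAC1. The ranges overlapped, and no test was made.

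Other genes linked to the pathway were described by lists, beside which all genes had a median excess of 0.33 in A549-GFP replicate 2 and 52% of them were highest in that library. The 10 amino acid transporters linked to ATF4 had a median difference of -0.40 between the lines and of -0.16 without A549-GFP replicate 2, which was the highest library for 8 of them, with a median excess of 1.17 on the log2 scale. None passed at an adjusted limma p under 0.05. SLC7A5 and SLC3A2, the 2 chains of the large neutral amino acid transporter LAT1, were lower at an unadjusted limma p under 0.05 with all 6 libraries, as were 0.88% of all genes, and neither was under 0.05 without A549-GFP replicate 2. The difference of SLC3A2 was -0.42 with and -0.35 without that library. SLC7A5 was present at 820, 660 and 571 TPM among the A549-GFP libraries and 592, 486 and 397 TPM among the A549-TIPARP libraries. Here A549-GFP replicate 1, not replicate 2, was the highest library, and the difference of -0.48 was -0.49 without A549-GFP replicate 2. SLC6A9, a glycine transporter, was 34.0 TPM in A549-GFP replicate 2 and 5.40 to 8.38 TPM elsewhere. SLC43A1, a neutral amino acid transporter, was 36.7 TPM there, 4.32 and 4.18 TPM in the other A549-GFP libraries and 5.67, 7.35 and 9.39 TPM among the A549-TIPARP libraries. With the high library left out it was higher in A549-TIPARP cells by 0.78, with an unadjusted p under 0.05, as were 9.3% of all genes, and a limma adjusted p of 0.400.

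All 12 cytosolic tRNA synthetases linked to ATF4, which charge tRNA with amino acids, were highest in A549-GFP replicate 2, with a median excess of 0.94 on the log2 scale. Their median difference between the lines was -0.40, and -0.12 without that library, and 0 of 12 had an adjusted or an unadjusted limma p under 0.05. With all 6 libraries MARS1 showed the largest difference of the 12, -0.58, with 157, 367 and 133 TPM among the A549-GFP libraries and 129, 150 and 119 TPM among the A549-TIPARP libraries. Without A549-GFP replicate 2 its difference was -0.13, and that of IARS1, -0.26, was the largest. A list of 12 other genes around eIF2, namely eIF2 kinases, eIF2 and eIF2B subunits, the phosphatase subunit PPP1R15B and the mitochondrial stress relay DELE1, had a median excess of 0.18 in A549-GFP replicate 2, which was highest for 6 of them, and a median difference of -0.14 with and -0.15 without that library. Of these PPP1R15B, the constitutive counterpart of PPP1R15A, was 49.7 TPM there and 20.8 to 32.4 TPM elsewhere.

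The 14 endoplasmic reticulum targets of XBP1 and ATF6, which report the other branches of the unfolded protein response, had a median excess of 0.43 in A549-GFP replicate 2, which was highest for 10 of them. Both values were nearer to those of all genes, 0.33 and 52%, than those of the members. Their median difference between the lines was -0.02, with 6 genes higher in A549-TIPARP cells, and 0.13 without that library, with 12 genes higher. Of all 13181 genes, 5285 were higher with all 6 libraries and 7503 without that library. DNAJB9, an XBP1-dependent co-chaperone of BiP, was 85.3 TPM in that library and 14.4 to 32.3 TPM elsewhere, and SEL1L, a part of the degradation machinery of the endoplasmic reticulum, was 39.9 TPM there and 12.0 to 21.7 TPM elsewhere. These were the 2 genes of the list past 2-fold in that library, whereas CRELD2 was lowest there at 41.9 TPM and ranged from 50.7 to 71.2 TPM elsewhere. With all 6 libraries, 0 of these 14 genes and 0 of the 12 eIF2-related genes had an adjusted or an unadjusted limma p under 0.05.

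The 14 analysed of 15 other serine, glycine, folate and proline enzymes did not share the pattern, with a median excess of 0.20 in A549-GFP replicate 2, which was highest for 6 of them. Their median difference was -0.0048, and -0.09 without that library. With all 6 libraries, 1 of them, the mitochondrial folate carrier SLC25A32, was lower at an unadjusted limma p under 0.05 (0.88% of all genes), which it was not without A549-GFP replicate 2, and none passed after adjustment. Its difference was -0.58 with and -0.45 without that library. TYMS, the thymidylate synthase that supplies dividing cells with thymidylate, was present at 289, 84.3 and 207 TPM among the A549-GFP libraries and 220, 241 and 81.5 TPM among the A549-TIPARP libraries. It was thus low in 1 library of each line, A549-GFP replicate 2 and A549-TIPARP replicate 3, and higher in the other 4 libraries.

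Of 3 factors secreted under stress, GDF15 and FGF21 sat at the floor in every library. VEGFA was present at 26.5, 86.7 and 19.2 TPM among the A549-GFP libraries and 30.8, 27.0 and 30.7 TPM among the A549-TIPARP libraries. It was thus 3.28-fold above the other 5 libraries in A549-GFP replicate 2, and its difference was -0.26 with and 0.39 without that library (limma adjusted p = 0.994 and 0.542).

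The excess in A549-GFP replicate 2 was not shared by every stress list. The 10 analysed of 12 immediate early genes, which respond within minutes to many stimuli, had a median excess of 0.96 there, and 9 were highest in that library. By contrast, 13 NRF2 targets, the antioxidant genes known to be high in A549 cells, had a median of -0.09, and 2 were highest there. With all 6 libraries, 1 gene of each of these lists was lower at an unadjusted limma p under 0.05 (0.88% of all genes), the AP-1 subunit FOSL1 and the sulfiredoxin SRXN1, and none passed after adjustment. The difference was -0.80 for FOSL1 and -0.58 for SRXN1, and -0.62 and -0.44 without A549-GFP replicate 2. Without that library, 2 of 10 immediate early genes and 2 of 13 NRF2 targets were lower at an unadjusted limma p under 0.05 (1.16% of all genes). JUN alone of these was higher (9.3% of all genes), by 0.98, the largest difference of its list. The median difference of the immediate early genes was -0.21 with and -0.17 without that library, and that of the NRF2 targets -0.11 and -0.15. The keratin KRT18 was present at 10108, 4176 and 11876 TPM among the A549-GFP libraries and 10399, 10441 and 9272 TPM among the A549-TIPARP libraries. It was lowest in A549-GFP replicate 2. The 7 A549 and epithelial markers did not move together there, with a median of -0.94 over a range from -1.97 for KRT19 to 0.83 for CDH1, and CDH1 alone was highest in that library. KRT19 was higher in A549-TIPARP cells by 2.00 with and 1.68 without it (limma adjusted p = 0.283 and 0.225). Whether these differences share a source with those of the ATF4 response genes was not tested.

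**Figure D4:**
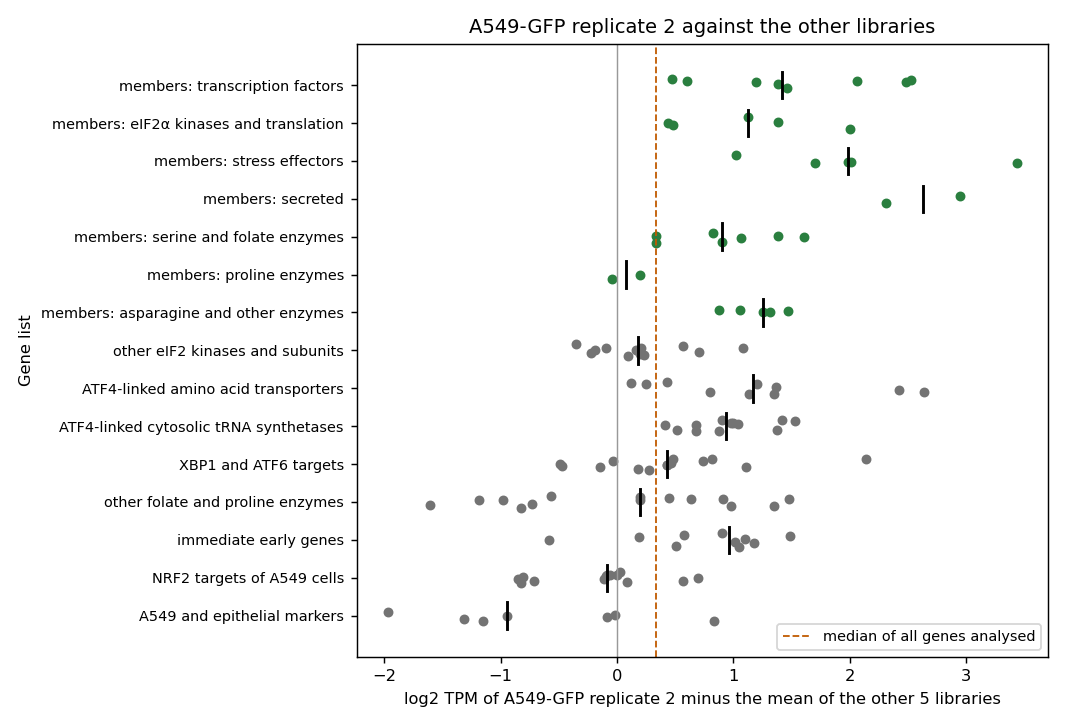
The horizontal axis is the log2 TPM of A549-GFP replicate 2 minus the mean log2 TPM of the other 5 libraries, with 1 point per gene, member groups in green, other lists in grey and bars at the median of each list; the dashed line is the median of all genes, 0.33. Stress effectors and secreted members lie furthest to the right, proline enzymes and NRF2 targets near 0, and the median of the A549 and epithelial markers to the left.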

How the data were processed

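RNA from A549-GFP and A549-TIPARP cells (3 libraries each) was isolated with Trizol and made into TruSeq Stranded mRNA libraries, per the labels. The authors used Strand NGS at default parameters to align paired-end NovaSeq reads to hg38 transcripts and deposited log2 TPM per gene. TPM below 1 had been set to 1. The tables hold no counts, so depth and counting error are unknown and count tests were not run. How multiply mapped reads were handled is not given in the sources used here.

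Entries with TPM above 2 in at least 1 library were analysed (13181). Folds are differences of mean deposited log2 TPM, and the threshold was 2-fold. limma 3.58.1 in R 4.3.3 was run with a variance trend on log2(TPM + 1) of all 6 libraries without a block, with Benjamini-Hochberg adjustment over all analysed genes, and was tested on simulated data. Tables and figures used Python 3.11.15, pandas 2.3.3 and matplotlib 3.10.9. Coordinates are those of GENCODE 44 on hg38, and promoters those of RefSeq.

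The members and lists were chosen with earlier results of these data known. Values in all 6 libraries are given for ATF4, DDIT3, ATF3, TRIB3, CHAC1, ASNS, PHGDH and PSAT1 and for members past 2-fold, under an unadjusted p of 0.05 with or without A549-GFP replicate 2, or not overlapping between the lines with all 6 libraries. Other members are given by ranges, and other lists by counts, medians and some of the up to 3 genes with the largest difference in each case; others so picked are not reported here. GDF15 and FGF21, at the floor, were named outside this rule, after their values were seen.

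Alternatives were each library left out, rescaling by the median ratio to the mean library, alone and without A549-GFP replicate 2, other pseudocounts, arithmetic means, other filters, a 1.5-fold threshold, limma on the deposited values or without a trend, and the replicate number as a block.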

Additional observations from a re-analysis of the deposited data

How the results depend on the processing

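TPM keeps no depth, so low genes such as ATF3 and NUPR1 carry an unknown counting error. Of 16 members given with all their values, 13 kept the sign of the difference under all 16 alternatives. DDIT3 turned to 0.27 and PHGDH to 0.11 with rescaling plus removal of A549-GFP replicate 2. With single libraries left out, DDIT3 ranged from -1.08 to 0.32, CHAC1 from -1.79 to 0.0255 and PHGDH from -0.39 to 0.16, each turning positive without A549-GFP replicate 2. Shares in parentheses are those of all genes under the same setting. Members past 2-fold higher numbered 1 (1.53%) and, with arithmetic means of TPM, 0 (1.38%). Members past 2-fold lower numbered 3 (0.432%), 7 with arithmetic means (1.08%), 16 at 1.5-fold (3.02%) and 0 with rescaling plus removal of A549-GFP replicate 2 (0.364%). With single libraries left out they ranged from 0 without A549-GFP replicate 2 (0.296%) to 9 without A549-GFP replicate 3 (1.52%), with 7 when A549-GFP replicate 1 (1.16%) and 1 when A549-TIPARP replicate 1 (0.379%) was left out. Members at an unadjusted p under 0.05 numbered 3 (3.85%) and ranged from 0 without A549-TIPARP replicate 1 (1.92%) to 9 without A549-GFP replicate 3 (8.23%), with 5 when A549-GFP replicate 1 (3.16%), 2 when A549-GFP replicate 2 (10.5%) and 1 when A549-TIPARP replicate 3 (2.42%) was left out. Members that did not overlap numbered 7 (8.91%), ranged from 7 (11.7%, without A549-TIPARP replicate 1) to 20 (30.7%, without A549-GFP replicate 3) with single libraries left out, gave 11 when A549-GFP replicate 2 was (27.7%), and numbered 15 with rescaling plus removal of A549-GFP replicate 2 (31.4%). The TIPARP difference, 4.11 with an adjusted p of 0.0125, ranged from 3.69 to 4.50 with single libraries left out. Its adjusted p was over 0.05 without any 1 of the libraries other than A549-GFP replicate 2, over 0.05 without a filter (difference 4.11) and 0.513 with the replicate block (3.90 on log2(TPM + 1)). Deviations of same-numbered libraries from their line mean correlated with r = 0.415, -0.486 and -0.358. Such deviations cancel within each line, so these correlations cannot tell whether a shared number paired libraries. With the replicate block, 0 members had an adjusted p and 4, in place of 3, an unadjusted p under 0.05 (3.14%). Rescaling moved the median difference of all genes by 0.07 on the log2 scale. The causes of these shifts were not tested.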
